A study of Mus musculus with 16 samples.

Results

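The genes described here were Cyp2d9, Cyp4a12a, Cyp4a12b, Hsd3b5, Elovl3, Slco1a1, Moxd1, Cyp2u1 and Nudt7, liver genes grouped for their dependence on the pulsatile pattern of growth hormone. They were taken by gene symbol from a set proposed with earlier results of these data known, and were 9 of the 24010 entries of the deposited expression table. Liver RNA of 16 C57BL/6 mice was measured by sequencing of mRNA libraries, with 4 animals in each of 4 groups. Old mice were labelled as 23 months and young mice as 5 months of age. Each mouse had an EEV plasmid (an episomal vector) delivered by hydrodynamic injection, a rapid large-volume injection into the tail vein that brings plasmid mainly into hepatocytes. The plasmid coded for human MANF, a protein of the endoplasmic reticulum that is also secreted, or was an empty control. Livers were studied 5 weeks later. The groups are called old MANF, old control, young MANF and young control, and all of them were injected. The labels did not give the sex of the mice. The Y-linked gene Ddx3y had 4.02 to 13.6 RPKM (reads per kilobase of gene, scaled by library size) across the 16 libraries, and Xist, the RNA of the silenced X chromosome, never exceeded 0.00755 RPKM. There was 1 library per animal, so that the tests below measure the spread between animals.

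In male rodents the pituitary releases growth hormone in pulses, whereas in females its release is closer to continuous. Each pulse activates the transcription factor STAT5b in hepatocytes through the growth hormone receptor and the kinase JAK2, and this intermittent activation maintains a set of male-biased liver genes, many of which code for steroid, fatty acid and drug metabolising enzymes. When the pulses are lost, such genes fall in male liver and several female-biased genes rise.

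RefSeq promoter windows of GRCm38.p6, the 250 bases before a gene start, were at hand for 5 of the 9 genes (Cyp2d9, Hsd3b5, Slco1a1, Moxd1 and Nudt7), and are shown for the 2 that held a match to a STAT type palindrome. The motifs searched were TTCNNNGAA and TTCNNNNGAA, each of which reads the same on both strands. Among 32851 RefSeq windows of the same length, 7.02% held the first and 5.85% held the second. The Moxd1 window was chr10:24223267-24223516 on the plus strand, with TTCCAGGAA beginning 150 bases before the start, and the Hsd3b5 window was chr3:98645535-98645784 on the minus strand, with TTCTGTAGAA beginning 203 bases before the start. This RefSeq start of Hsd3b5 lies outside the gene span of the annotation used below for coordinates. Both windows are written 5′ to 3′ with the match in capitals. A match is a description of these letters and no evidence of binding.
Moxd1: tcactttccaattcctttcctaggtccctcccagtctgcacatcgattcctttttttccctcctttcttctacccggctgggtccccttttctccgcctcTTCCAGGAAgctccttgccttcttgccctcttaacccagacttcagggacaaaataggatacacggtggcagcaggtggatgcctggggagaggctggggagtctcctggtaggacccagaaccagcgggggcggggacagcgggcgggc
Hsd3b5: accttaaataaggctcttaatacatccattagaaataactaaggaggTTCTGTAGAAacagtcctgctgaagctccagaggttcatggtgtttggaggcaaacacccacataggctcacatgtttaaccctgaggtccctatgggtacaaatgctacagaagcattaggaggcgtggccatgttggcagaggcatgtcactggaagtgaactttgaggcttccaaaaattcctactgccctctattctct

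The libraries held 18.31 to 26.12 M reads (M, megareads) behind the RPKM, of which 11.85 to 16.58 M lay in listed genes. The tests covered 10677 genes with 0.5 RPKM or more in no fewer than 4 libraries, all 9 members among them, though Moxd1 reached that level through young libraries alone. Hepatocyte markers were abundant in every library, with a sum of 39220 to 57900 RPKM over 11 genes. Old control replicate 4 lay furthest from its group (root mean square log2 deviation 0.553), followed by young MANF replicate 3 (0.472), against 0.241 to 0.369 in the other 14 libraries. In bulk liver, fewer cells of a type and less RNA per cell cannot be told apart.

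The members spanned a wide range of expression. Per kilobase, Cyp2d9 was the most abundant of them in all 4 groups, with means of 331.2 RPKM in old MANF, 625.4 in old control, 835.0 in young MANF and 795.2 RPKM in young control livers, and its range did not overlap that of the next member in any group. Cyp2u1 lay between 0.879 and 3.480 RPKM in all libraries, and Moxd1 was the lowest member in old livers. Between them lay Nudt7, Cyp4a12a, Slco1a1, Elovl3, Hsd3b5 and Cyp4a12b with group means of 13.18 to 115.6 RPKM, and most neighbours in that order overlapped. Elovl3 and Cyp4a12b could not be put in order in young control livers, at 29.59 and 30.16 RPKM, nor Hsd3b5 and Cyp4a12b in old control livers, at 19.14 and 19.27 RPKM.

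**Figure D1:**
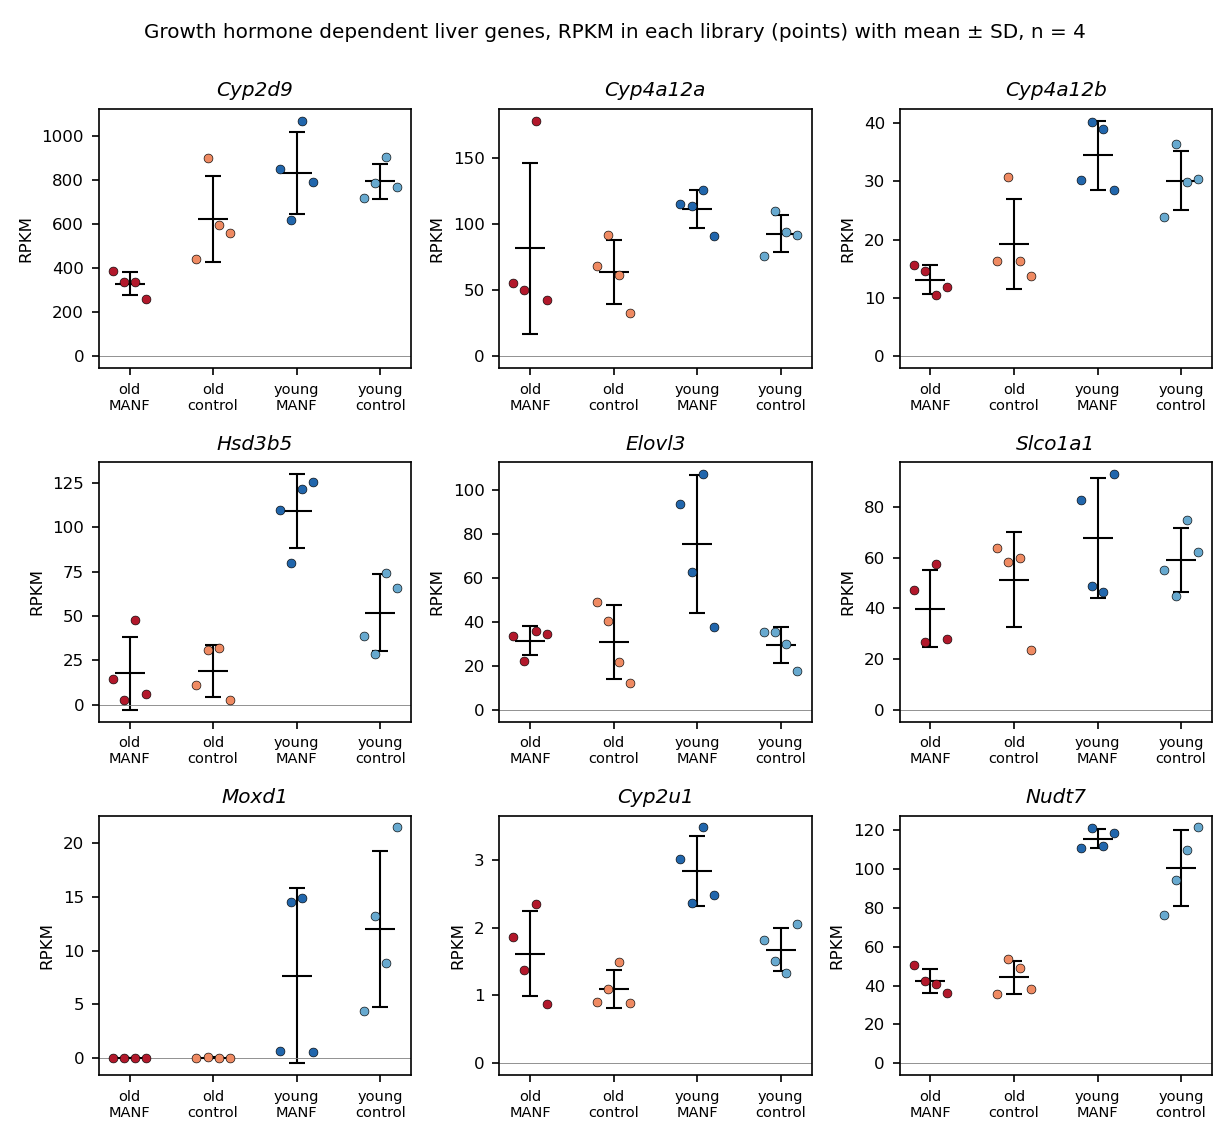
RPKM of the 9 genes in each library (points), with the mean and SD of each group (bars, n = 4); each panel has its own linear scale. Nudt7 and Moxd1 show no overlap between the old and the young groups, with Nudt7 at 35.58 to 53.49 RPKM in old and 76.47 to 121.5 RPKM in young livers.

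Age was compared under each plasmid and over both. Moxd1, which reached the filter through young libraries alone, is described separately and left out of the counts of this paragraph. Averaged over both plasmids, 5 of the other 8 genes fell with age (Nudt7, Cyp4a12b, Cyp2d9, Hsd3b5 and Cyp2u1), whereas 1.53% of all tested genes fell and 15.6% were called in either direction. A gene was called when its adjusted p (limma on log2(RPKM + 0.5), Benjamini-Hochberg over all tested genes) was below 0.05. The remaining members, Cyp4a12a, Slco1a1 and Elovl3, had log2 differences below 0 that did not pass, so that all 8 lay below 0, as did 25% of all tested genes. All 8 were also below 0 under the MANF plasmid alone and under the control plasmid alone, against 21% and 37.8% of all tested genes. The median log2 difference of the 8 genes was -0.76, against 0.11 over all tested genes. Under the MANF plasmid alone the same 5 genes fell (background 0.721%), and under the control plasmid Nudt7 fell (background 0.347%). The medians of the 8 genes were -1.24 under the MANF plasmid and -0.53 under the control plasmid, against 0.18 and 0.05 over all tested genes. Under the MANF plasmid, the calls of Hsd3b5 and Cyp2u1 were both lost without young MANF replicate 1 or 3. Both were also lost without old MANF replicate 2 or 4. None of the members' age differences was called as different between the plasmids (interaction, background 0%).

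**Figure D2:**
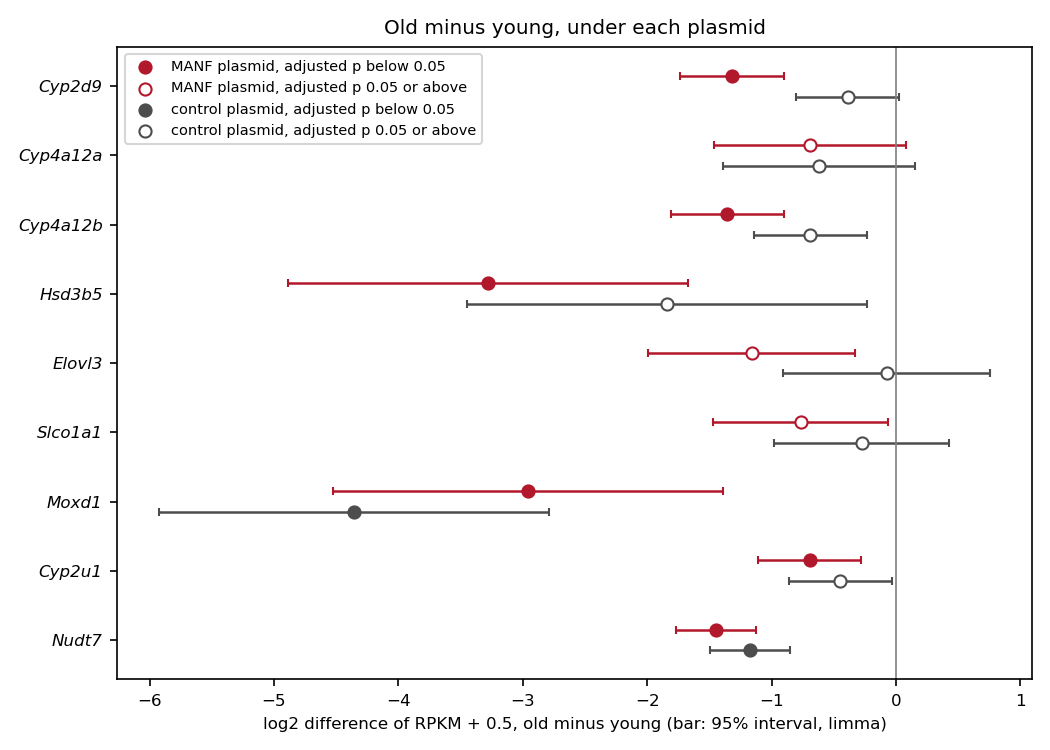
Log2 difference of RPKM + 0.5, old minus young, for each gene under the MANF plasmid and under the control plasmid, with 95% intervals from limma; filled points passed an adjusted p of 0.05. All points lie left of 0, and Nudt7 passed under both plasmids. Moxd1 did so too, but it reached the filter through young libraries alone, so that its points are a description.

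Nudt7 codes for a peroxisomal hydrolase that breaks down coenzyme A and its esters (chr8:114133557-114154739, plus strand, GRCm38, GENCODE M21). Its values were 50.48, 42.24, 40.90 and 35.98 RPKM in old MANF livers and 35.58, 53.49, 49.20 and 38.45 RPKM in old control livers. Young MANF livers held 111.0, 121.0, 112.0 and 118.5 RPKM and young control livers 76.47, 94.34, 109.7 and 121.5 RPKM. Each of the 8 old libraries thus lay below each of the 8 young ones, an arrangement found for 0.309% of all tested genes. The log2 difference averaged over both plasmids was -1.31 (SE 0.107, adjusted p = 7.19e-06 by limma). It was -1.45 under the MANF plasmid (adjusted p = 0.000231) and -1.18 under the control plasmid (adjusted p = 0.00147), and the coefficient of variation was 4.24% in young MANF livers, the lowest of any member and group.

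Moxd1, which codes for a copper-dependent monooxygenase related to dopamine beta-hydroxylase (chr10:24223517-24302790, plus strand), all but disappeared from old livers. It was counted with 0, 3, 3 and 1 reads in old MANF libraries and with 1, 5, 1 and 1 reads in old control libraries, which is 0 to 0.07501 RPKM. Young MANF livers held 0.6704, 14.51, 14.90 and 0.5519 RPKM and young control livers 4.404, 13.22, 8.863 and 21.48 RPKM. The old and young ranges were apart under both plasmids, and Moxd1 was the second member for which all 16 libraries separated by age. Summed over libraries there were 15 reads in old and 5230 in young livers, a 328-fold lower rate in old livers (exact 95% interval 199 to 587, counting error only). Since no old library reached the filter for Moxd1, its age tests are given as a description. On the log2(RPKM + 0.5) scale, which understates such a change, the difference was -3.66 (SE 0.522, adjusted p = 0.000777 by limma) over both plasmids, -2.96 (adjusted p = 0.0328) under the MANF plasmid and -4.36 (adjusted p = 0.00972) under the control plasmid. Young MANF livers fell into a low pair (replicates 1 and 4, 56 and 44 reads) and a high pair (replicates 2 and 3, 999 and 922 reads). Removal of young MANF replicate 2, of young MANF replicate 3 or of any single old MANF library took the call under the MANF plasmid away (adjusted p up to 0.0831), with log2 differences of -2.98 to -2.33. It was also lost with a pseudocount of 1 RPKM (adjusted p = 0.051), with no filter (adjusted p = 0.053) and with only the 2 groups fitted (adjusted p = 0.0616). With the recovered reads in limma voom, both comparisons by plasmid missed the threshold (adjusted p = 0.11 for MANF and 0.144 for control), and the difference over both plasmids held (log2 -7.56, adjusted p = 0.0174).

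Among the cytochrome P450 genes, Cyp2d9, a steroid hydroxylase long used as a marker of male mouse liver (chr15:82433437-82456845, plus strand), was read at 387.3, 338.1, 336.9 and 262.6 RPKM in old MANF livers and at 444.1, 899.7, 595.5 and 562.3 RPKM in old control livers. It was read at 852.0, 621.4, 1072 and 794.8 RPKM in young MANF livers and at 718.1, 787.2, 907.5 and 767.8 RPKM in young control livers. Old MANF livers lay below every library of the other 3 groups, while old control replicate 2 lay within the young range. Over both plasmids the log2 difference with age was -0.85 (SE 0.139, adjusted p = 0.00169 by limma). It was -1.32 under the MANF plasmid (adjusted p = 0.00281) and -0.39 under the control plasmid (95% interval -0.81 to 0.03, adjusted p = 0.38).

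Cyp4a12b, a fatty acid hydroxylase (chr4:115411624-115439034, plus strand), was read at 15.75, 14.59, 10.49 and 11.89 RPKM in old MANF livers and at 16.32, 30.69, 16.33 and 13.76 RPKM in old control livers. Its levels were 30.26, 40.22, 38.94 and 28.48 RPKM in young MANF livers and 23.89, 36.35, 29.95 and 30.44 RPKM in young control livers. Of the 8 old libraries 7 lay below all young ones, and old control replicate 2 was the exception. Its log2 difference with age was -1.02 (SE 0.150, adjusted p = 0.000868 by limma) over both plasmids and -1.36 (adjusted p = 0.00372) under the MANF plasmid. Under the control plasmid it was -0.69 (95% interval -1.14 to -0.24, adjusted p = 0.129), and without old control replicate 2 it was -0.93 (adjusted p = 0.0197). No other fit that left out 1 library gave a call under the control plasmid (adjusted p up to 0.31).

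Cyp4a12a, the male-biased fatty acid hydroxylase next to it (chr4:115299046-115332815, plus strand), did not pass in any age comparison. It was read at 55.89, 50.47, 178.4 and 42.80 RPKM in old MANF livers and at 68.59, 92.04, 61.42 and 33.02 RPKM in old control livers. It was read at 115.1, 113.8, 125.6 and 91.21 RPKM in young MANF livers and at 75.76, 109.8, 94.19 and 91.52 RPKM in young control livers. Old MANF replicate 3 held the highest value of all 16 libraries, and the other old MANF libraries lay below all young ones. The log2 difference with age over both plasmids was -0.66 (SE 0.257, adjusted p = 0.0901 by limma), and without that library it was -0.89 (adjusted p = 0.00546). Under the MANF plasmid it was -0.70 (adjusted p = 0.188) with the library and -1.16 (adjusted p = 0.0261) without it. Cyp4a12a was called for age in no other fit that left out 1 library.

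The transcripts of Cyp4a12a and Cyp4a12b are 98.3% identical, with an edit distance of 41 over 2395 bases, and how reads that fit both were assigned is not given in the sources used here, so their separate levels are uncertain. The ratio of Cyp4a12a to Cyp4a12b RPKM was 2.4 to 4.2 in 15 libraries and 17.0 in old MANF replicate 3. In that library Cyp4a12b was at its lowest of all 16, at 10.49 RPKM. Cyp2d9 has relatives at 93.4% (Cyp2d11, at most 2.91 RPKM) and 91.6% (Cyp2d10, at most 407 RPKM) transcript identity. Hsd3b5 has one at 92.4% (Hsd3b4, listed at 0 in every library). Pseudogenes and a miRNA gene that are not among the listed entries overlap Cyp2d9 on the same strand. On the opposite strand, Zfp697 overlaps Hsd3b5 and Pitx3 overlaps Elovl3, at no more than 0.218 and 0.0288 RPKM, and an antisense gene that was not analysed here overlaps Cyp2u1. Whether counting used strand is not given in the sources used here.

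**Figure D3:**
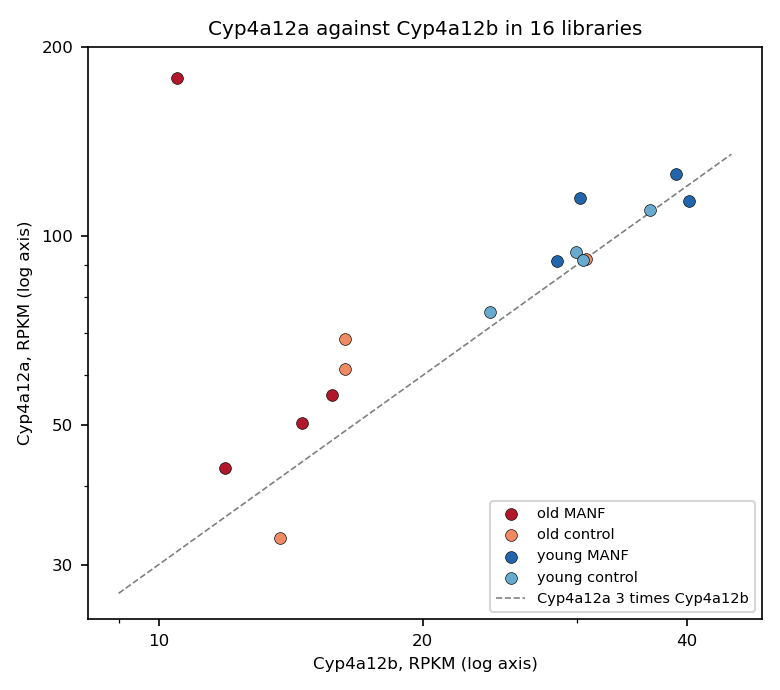
Cyp4a12a against Cyp4a12b, RPKM on log axes, 1 point per library; the dashed line marks a ratio of 3. The points of 15 libraries follow the line at ratios of 2.4 to 4.2, and old MANF replicate 3 stands apart at 17.0.

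Cyp2u1, a hydroxylase of long-chain fatty acids (chr3:131288441-131303227, minus strand), was expressed at a low level. It was read at 1.856, 1.381, 2.344 and 0.879 RPKM in old MANF livers and at 0.9106, 1.098, 1.495 and 0.8954 RPKM in old control livers. In young livers there were 3.009, 2.366, 3.480 and 2.480 RPKM with the MANF plasmid and 1.822, 1.507, 1.331 and 2.048 RPKM with the control plasmid. The old and young ranges were apart under the MANF plasmid, the highest old value being 2.344 RPKM and the lowest young value 2.366 RPKM, and overlapped under the control plasmid. Over both plasmids its log2 difference with age was -0.57 (SE 0.138, adjusted p = 0.0145 by limma), and under the MANF plasmid it was -0.70 (adjusted p = 0.0474). The call under the MANF plasmid was lost without any 1 of 6 of its 8 libraries (young MANF replicates 1, 2 or 3, old MANF replicates 1, 2 or 4), with adjusted p up to 0.105. It was also lost with no filter (adjusted p = 0.0719), with only the 2 groups fitted (adjusted p = 0.0714), and without both young MANF replicate 3 and old control replicate 4 (adjusted p = 0.071). Under the control plasmid the difference was -0.45 (adjusted p = 0.292).

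Hsd3b5, a hydroxysteroid dehydrogenase of male mouse liver (chr3:98618634-98630252, minus strand), ranged over the 16 libraries between 2.448 and 125.9 RPKM. Old MANF livers held 14.28, 2.906, 47.70 and 5.859 RPKM and old control livers 10.98, 30.94, 32.21 and 2.448 RPKM. Young MANF livers held 109.9, 79.93, 121.9 and 125.9 RPKM and young control livers 38.58, 28.88, 74.49 and 65.84 RPKM. The ages did not overlap under the MANF plasmid, and under the control plasmid 2 of 4 old libraries lay within the young range. The log2 difference with age was -2.56 (SE 0.534, adjusted p = 0.0076 by limma) over both plasmids and -3.28 (adjusted p = 0.0256) under the MANF plasmid. That second call did not hold when any 1 of 4 libraries was removed, namely replicates 1 and 3 of young MANF and replicates 2 and 4 of old MANF (adjusted p up to 0.0674). Under the control plasmid the difference was -1.84 (95% interval -3.45 to -0.23, adjusted p = 0.262), and without old control replicate 4 it was -1.10.

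Elovl3, an elongase of very long chain fatty acids, and Slco1a1, a transporter that takes organic anions up from the blood, did not pass in any age comparison. Elovl3 (chr19:46131897-46135694, plus strand) was read at 33.85, 22.04, 35.89 and 34.61 RPKM in old MANF livers and at 49.39, 40.30, 21.80 and 12.27 RPKM in old control livers. Young MANF livers held 93.92, 62.64, 107.5 and 37.75 RPKM and young control livers 35.47, 35.30, 29.87 and 17.73 RPKM. The young MANF group lay above old MANF and above young control livers without overlap, and the other groups overlapped. The log2 difference with age was -0.62 (adjusted p = 0.133 by limma) over both plasmids, -1.16 (adjusted p = 0.0716) under the MANF plasmid and -0.08 (adjusted p = 0.96) under the control plasmid, where the mean RPKM in old livers was 1.05 times that in young livers. The difference under the MANF plasmid passed without young MANF replicate 4 (log2 -1.45, adjusted p = 0.0379) and when only the 2 groups compared were fitted (adjusted p = 0.0423). It passed in no other fit that left out 1 library (adjusted p up to 0.178).

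Slco1a1 (chr6:141907282-141946962, minus strand) was read at 47.39, 26.66, 57.66 and 27.99 RPKM in old MANF livers and at 63.72, 58.36, 59.71 and 23.72 RPKM in old control livers. Young MANF livers held 82.89, 48.64, 46.46 and 92.98 RPKM and young control livers 54.94, 44.90, 74.82 and 62.24 RPKM. The groups overlapped under both plasmids. Its log2 difference with age was -0.52 (95% interval -1.02 to -0.02, adjusted p = 0.132 by limma) over both plasmids and -0.77 (adjusted p = 0.122) under the MANF plasmid, where it passed once the 2 libraries furthest from their groups were removed (log2 -0.92, adjusted p = 0.0415). Under the control plasmid it was -0.28 (adjusted p = 0.763), and without old control replicate 4, which was far below its group, it was 0.056. That of Elovl3 was then 0.30.

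Separation by age was counted under each plasmid. Moxd1 apart, 6 of the other 8 members (Cyp2d9, Cyp4a12b, Hsd3b5, Elovl3, Cyp2u1 and Nudt7) under the MANF plasmid had every old library below every young one, as did 1.36% of all tested genes. Under the control plasmid 1 of these 8 did (Nudt7), as did 2.34% of all tested genes. The difference between the plasmids was tested gene by gene as the interaction, and no member passed. The members with the smallest interaction p were Cyp2d9 (log2 -0.93, unadjusted p = 0.00413, adjusted p = 0.594 by limma) and Cyp4a12b (log2 -0.67, unadjusted p = 0.0415, adjusted p = 0.594). At an unadjusted p below 0.05, 2 of 9 members and 8.37% of all tested genes differed.

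The effect of the MANF plasmid was compared at each age. No member was called by limma in old livers (background 0.103%) or in young livers (background 0.0187%). At an unadjusted p below 0.05, 2 of 9 members differed in old livers (Cyp2d9 and Cyp4a12b) and 2 of 9 in young livers (Elovl3 and Cyp2u1), against 9.7% and 14.9% of all tested genes. In old livers Cyp2d9 averaged 331.2 ± 51.4 RPKM with the MANF plasmid and 625.4 ± 194 RPKM with the control plasmid (SD, n = 4 each), and all 4 old MANF libraries lay below all 4 old control ones, as was so for 1.84% of tested genes. Its log2 difference was -0.88 (95% interval -1.30 to -0.47, unadjusted p = 0.000388, adjusted p = 0.106 by limma). Of 8 fits that each left out 1 library, it was called only without old control replicate 4 (log2 -0.92, adjusted p = 0.0498). The highest adjusted p of these fits was 0.248. In young livers Cyp2d9 had a log2 difference of 0.05 (95% interval -0.37 to 0.47). Cyp4a12b in old livers had a log2 difference of -0.48 (unadjusted p = 0.0392, adjusted p = 0.479).

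In young livers 3 members were higher in every MANF library than in every control library, as were 2.29% of tested genes, but none passed the adjustment. Elovl3 averaged 75.46 ± 31.4 RPKM in young MANF livers and 29.59 ± 8.32 RPKM in young control livers (log2 1.28, 95% interval 0.44 to 2.11, unadjusted p = 0.00511, adjusted p = 0.227 by limma). Cyp2u1 averaged 2.833 ± 0.514 RPKM in young MANF livers and 1.677 ± 0.320 RPKM in young control livers (log2 0.61, unadjusted p = 0.00639, adjusted p = 0.227). Hsd3b5 averaged 109.4 ± 20.8 RPKM in young MANF livers and 51.95 ± 21.7 RPKM in young control livers (log2 1.15, 95% interval -0.46 to 2.75, adjusted p = 0.453). Moxd1 had a log2 difference of -1.40 (95% interval -2.97 to 0.17, adjusted p = 0.372), and the intervals of Cyp2d9, Cyp4a12a, Cyp4a12b, Slco1a1 and Nudt7 covered 0. Nr1d1, which codes for the clock repressor REV-ERB alpha and was chosen after its values were seen, was the 1 tested clock gene called in either comparison. Its range was 15.19 to 26.44 RPKM in old MANF and 7.172 to 7.789 RPKM in old control livers (n = 4 each, log2 1.34, adjusted p = 0.00345 by limma). In young livers it was 14.98 to 24.41 RPKM with MANF and 5.734 to 8.081 RPKM with control (n = 4 each, log2 1.46, adjusted p = 0.00127 by limma). The part of clock genes in the members' values was not tested.

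**Figure D4:**
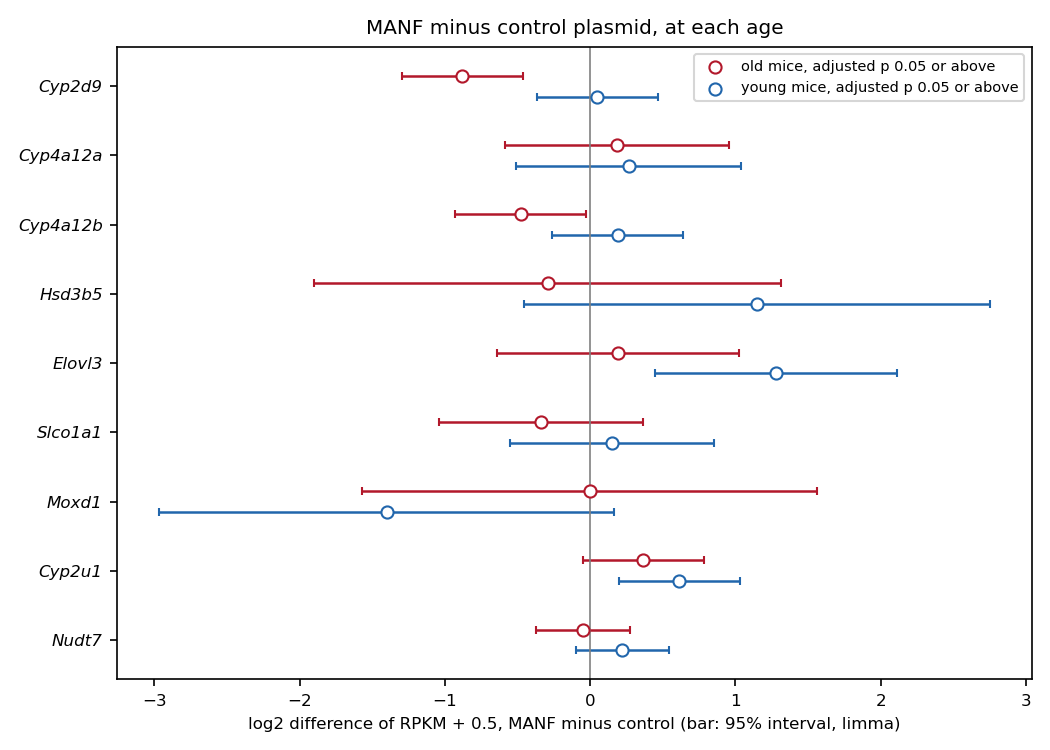
Log2 difference of RPKM + 0.5, MANF minus control, for each gene in old and in young mice, with 95% intervals from limma; no point passed an adjusted p of 0.05. The interval of Cyp2d9 in old mice (-1.30 to -0.47) lies below 0, and those of Elovl3 and Cyp2u1 in young mice lie above 0.

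Across single livers, most correlations between members were above 0. Correlations of log2(RPKM + 0.5) between members were above 0 in 36 of 36 pairs over the 16 libraries (median r 0.58), and in 31 of 36 pairs once group means were removed (median r 0.32). These are descriptions over libraries that share a scale, and the first count includes the differences between groups. The share of such pairs among other genes was not computed, nor were the correlations without old control replicate 4. Within groups the closest pair was Hsd3b5 and Slco1a1 (r 0.81), and the most opposed was Slco1a1 and Moxd1 (r -0.44). All 9 members were below their own median in old MANF replicates 2 and 4 and in old control replicate 4, whereas 4 of 9 were in old MANF replicate 3 and old control replicate 2. In young libraries 0 to 4 members were below their median.

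**Figure D5:**
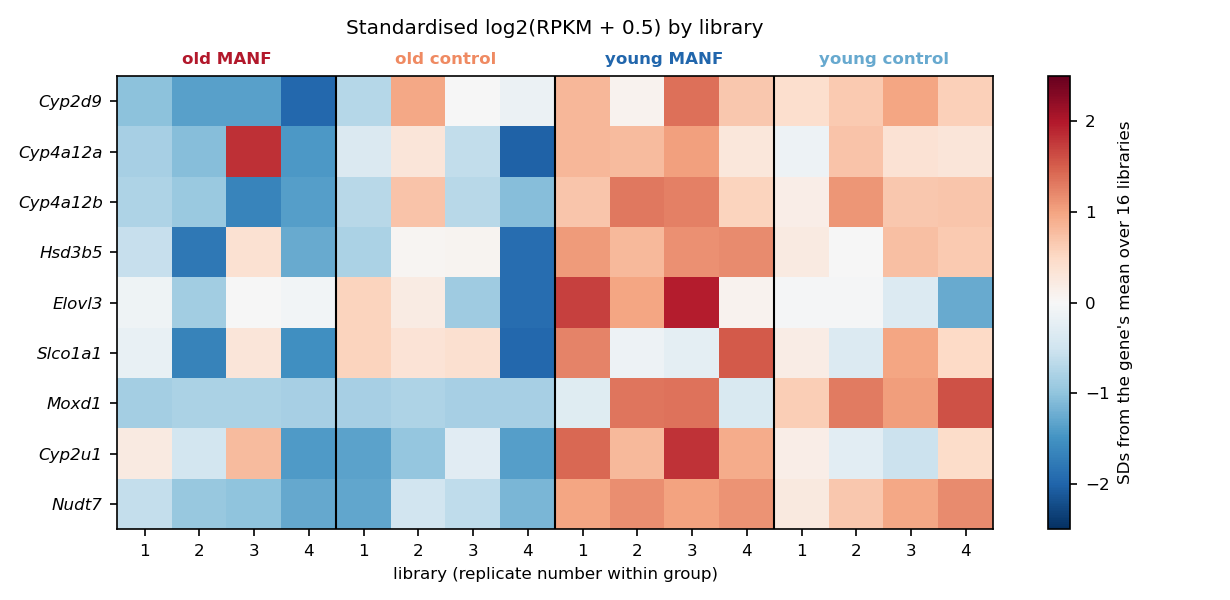
Log2(RPKM + 0.5) of each gene in each library, in SDs from that gene's mean over the 16 libraries; columns are libraries by group and replicate number, red is higher and blue lower. Old control replicate 4 and old MANF replicates 2 and 4 lie below the mean for all 9 genes, some by little, while Cyp4a12a in old MANF replicate 3 and Cyp2d9 in old control replicate 2 are red within old groups.

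Other tested genes were ranked by likeness to the mean standardised profile of the 9 genes over 16 libraries, as a description. The most alike were Higd1a (r 0.93), Mup17 (r 0.91), Mup15 (r 0.90), Letm1 (r 0.90) and Mup3 (r 0.90), and the most opposed were Naip2 (r -0.95), Ifi44 (r -0.95) and Rtp4 (r -0.95). After group means were removed, the most alike were Gpd1 (r 0.88), Obp2a (r 0.85), Cyp2j9 (r 0.84), Letm1 (r 0.83) and Cluh (r 0.83), and the most opposed Agpat5 (r -0.93), Irf9 (r -0.93) and Ifi44 (r -0.93). Mup15, Mup17 and Mup3 belong to the major urinary proteins, close relatives whose reads could be split between them.

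Other genes of the same regulation were counted over both plasmids, in lists chosen with earlier results of these data known. The 12 tested male-biased liver genes outside the 9 members had a median log2 difference of -1.25, against 0.11 over all tested genes. Of them 11 fell with age, against 1.53% of all tested genes. They included Ugt2b38, a glucuronosyltransferase, at 1.21 ± 0.655 RPKM in old MANF, 3.69 ± 1.98 in old control, 11.9 ± 1.98 in young MANF and 22.3 ± 5.79 RPKM in young control livers (SD, n = 4 each, log2 -2.74, adjusted p = 7.19e-06 by limma). They also included Gstp1, a glutathione transferase (log2 -1.28, adjusted p = 9.7e-06), Cyp7b1, an oxysterol hydroxylase (log2 -1.23, adjusted p = 0.000777), and the complement component C6 (log2 -0.62, adjusted p = 0.000777). Of 18 listed female-biased genes 8 were tested. Only 4 of them had 0.5 RPKM or more in 4 libraries of each age, and of these none was called, with a median log2 difference of 0.08, while 14.1% of all tested genes rose. Summed over the 18 genes, levels were 19.33 to 50.84 RPKM in old MANF, 10.24 to 34.69 in old control, 13.70 to 20.03 in young MANF and 12.86 to 15.75 RPKM in young control livers.

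The 3 female-biased genes that were called, Cyp2a4, Cyp2b9 and Ntrk2, were tested because of their levels in old livers, so that their calls are given as a description. Cyp2a4, a steroid hydroxylase, averaged 5.83 ± 3.49 RPKM in old MANF, 1.44 ± 1.76 in old control, 0.173 ± 0.0438 in young MANF and 0.113 ± 0.102 RPKM in young control livers (log2 2.16, adjusted p = 0.00129 by limma). Cyp2b9, a cytochrome P450, had a log2 difference of 1.35 (adjusted p = 0.0283) and Ntrk2, a neurotrophin receptor, one of 0.83 (adjusted p = 0.0325). Of 16 fits that each left out 1 library, Cyp2b9 was called in 13 (adjusted p up to 0.0535) and Ntrk2 in 6 (up to 0.0663), and both calls were lost when libraries were scaled to a common median (adjusted p = 0.0559 and 0.0741). Nt5e, Slco1a4 and Cyp2c40 did not pass, with log2 differences of 0.27, 0.35 and -0.37. The 10 female-biased genes that did not reach the filter were not tested.

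Of 13 tested genes of the growth hormone pathway, 2 rose and 1 fell with age, with a median log2 difference of 0.13, against 14.1% and 1.53% of all tested genes and their median of 0.11. Prlr, the prolactin receptor (log2 0.66, adjusted p = 0.0146 by limma), and Stat5b, which transmits the hormone signal (log2 0.36, adjusted p = 0.016), rose. The calls of Stat5b and Prlr did not hold under quantile normalisation (adjusted p = 0.0708 and 0.0543), nor that of Stat5b under median scaling (adjusted p = 0.0933). Igfals, the acid-labile subunit of the circulating IGF complex, fell (log2 -0.41, adjusted p = 0.0151). The kinase gene Jak2 had a log2 difference of 0.36 (adjusted p = 0.0559) and Hnf4a, a transcription factor of hepatocytes, 0.17 (adjusted p = 0.278). Stat5a had 0.13 (adjusted p = 0.241), with the opposite sign under median scaling and quantile normalisation.

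Of 22 tested family relatives of the members, 2 rose and 2 fell with age, against 14.1% and 1.53% of all tested genes. The fatty acid elongase Elovl6 (log2 0.82, adjusted p = 0.016 by limma) and the peroxisomal hydrolase Nudt19 (log2 0.23, adjusted p = 0.016) rose, and neither was called under median scaling (adjusted p = 0.0545 and 0.499). Cyp2d11 (log2 -0.59, adjusted p = 0.0164) and Cyp4a32 (log2 -0.64, adjusted p = 0.026) fell. Cyp2d11 had at most 2.91 RPKM, and its transcript is 93.4% identical to that of the far more abundant Cyp2d9. How reads that fit both were assigned is not given, so the separate level of Cyp2d11 is uncertain. The call of Cyp4a32 was lost without young MANF replicate 1 (adjusted p = 0.0509), without old MANF replicate 1 (adjusted p = 0.054) and without both far libraries (adjusted p = 0.0608). Cyp2d40 did not pass over both plasmids and fell under the MANF plasmid (log2 -0.79, adjusted p = 0.0449). The median of the relatives was 0.06.

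Clock and acute-phase genes were counted in the same way, against 14.1% of all tested genes that rose. Of 18 tested clock genes 3 rose, a share near that of all genes, namely Noct (log2 2.37, adjusted p = 0.00137 by limma), Bhlhe40 (log2 0.66, adjusted p = 0.0233) and Cry2 (log2 0.22, adjusted p = 0.0323), of which only Noct was called under median scaling. Of the 16 fits without 1 library, Bhlhe40 was called in 15 (lost without young control replicate 4, adjusted p = 0.0533) and Cry2 in 10 (adjusted p up to 0.065). Per1 had a log2 difference of 0.39 (adjusted p = 0.056). Of 18 acute-phase genes 3 rose, again a share near that of all genes, namely Orm3 (log2 1.81, adjusted p = 0.00863), Steap4 (log2 0.93, adjusted p = 0.0207) and Lcn2 (log2 2.08, adjusted p = 0.0399). The call of Lcn2 was lost with a pseudocount of 1 RPKM (adjusted p = 0.0532), with no filter (0.0634), under median scaling (0.0543), quantile normalisation (0.0603) and voom (0.0735), and it held in 7 of 16 fits without 1 library (adjusted p up to 0.08). Itih4 had a log2 difference of 0.37 (adjusted p = 0.108).

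Markers of other liver cells were counted against the 14.1% of all tested genes that rose. Of 12 Kupffer cell markers 7 rose, and their sum was 163.4 to 322.6 RPKM in old MANF, 138.7 to 768.7 in old control, 42.84 to 152.1 in young MANF and 77.55 to 187.9 RPKM in young control livers. None of the 7 tested T and NK cell markers and none of the 5 tested B and plasma cell markers had 0.5 RPKM or more in 4 libraries of each age, so that their calls are not counted here. The 12 listed T and NK cell markers had sums of 4.69 to 7.41 RPKM in old MANF, 4.76 to 21.1 in old control, 1.15 to 1.54 in young MANF and 1.55 to 6.20 RPKM in young control livers. Of 10 sinusoidal endothelium markers 9 rose. Of 10 stellate cell markers 9 had 0.5 RPKM or more in 4 libraries of each age, and 2 of these 9 rose. Only 1 of 3 tested cholangiocyte markers reached that level at both ages, and it was not called. Of 11 hepatocyte markers 1 rose (Alb, log2 0.34, adjusted p = 0.0364 by limma) and none fell. No list of other cells had all its markers at 0 in any group. Old control replicate 4 held the highest Kupffer sum and the highest acute-phase sum, 18530 RPKM against 7743 to 16490 RPKM in the other 15 libraries. Without it, the 5 calls over both plasmids besides that of Moxd1 held. Their log2 differences were -1.28 for Nudt7, -0.96 for Cyp4a12b, -0.84 for Cyp2d9, -2.19 for Hsd3b5 and -0.54 for Cyp2u1. That of Moxd1, given as a description, was -3.65. The part of these cells in the members' differences was not tested.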

How the data were processed

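The deposited table held RPKM values that the authors had computed for 24010 entries in 16 libraries. Per the submitters' processing notes, STAR 2.4.2a, HTSeq and mm10 were used; their settings, strand use and the treatment of reads that align to several genes are not given in the sources used here. Whole reads were recovered from the spacing of the RPKM, and 100% of values above 0 came out whole within 0.01 reads (at most 0.2 for large counts). Intervals on reads cover counting error only.

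Values were analysed as log2(RPKM + 0.5) with limma 3.58.1 in R 4.3.3, with 1 mean per group and an intensity trend, for genes that reached 0.5 RPKM in 4 or more libraries. Tests were two-sided, adjusted by Benjamini-Hochberg. The pipeline was tested on simulated data. Fold changes of low genes are understated on this scale. The members, the gene lists and the tests were chosen with earlier results of these data known. In the lists, 1 growth hormone pathway gene is not reported here. All members are named, and from each list the 4 genes (6 for female-biased and growth hormone pathway genes) with the smallest p over both plasmids, for marker lists as counts only apart from Alb; called relatives; and the 5 most alike and 3 most opposed genes by r. Nr1d1 was named outside this rule, after its values were seen. A total of 24 entries carried a date in place of a symbol and stayed unnamed. Alternatives were other pseudocounts, filters and scalings, voom on recovered reads, a replicate block, fits of the 2 groups compared, and libraries left out. Coordinates are GENCODE M21 (GRCm38). Promoters are RefSeq, GRCm38.p6.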

Additional observations from a re-analysis of the deposited data

Results flagged for a closer look

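In groups of 4, a library was singled out when its distance from the nearest other library, divided by the range of the group, exceeded Dixon's 95% critical value. Of 40 groups examined (the 9 genes and the ratio of Cyp4a12a to Cyp4a12b, each in 4 groups) 4 were singled out, and chance gives about 1 in 20 groups. Elovl3 was 22.0 RPKM in old MANF replicate 2, below 33.85 to 35.89 RPKM in the other old MANF livers. Slco1a1 was 23.7 RPKM in old control replicate 4, below 58.36 to 63.72 RPKM in the other old control livers. Moxd1 was 0.075 RPKM in old control replicate 2, which is 5 reads against 1 read in each of the others. The ratio of Cyp4a12a to Cyp4a12b was 17.0 in old MANF replicate 3, against 3.46 to 3.60 in the other old MANF livers.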

How the results depend on the processing

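The 5 members called over both plasmids besides Moxd1 passed in each of the 16 fits that left out 1 library. With Moxd1 counted, as a description, 6 to 7 members were called there. No member's difference over both plasmids changed sign in 224 alternative values. Of 546 alternative age values of the members, 539 lay below 0. All of these are refits of the same libraries, Moxd1 included, and are no independent support. Under a filter of 1 RPKM in 8 libraries, which Moxd1 did not reach, and under voom, 1 member was called for age under the control plasmid in place of 2. With both far libraries left out (old control 4 and young MANF 3), 1 member (Cyp2d9) was called for MANF in old livers. With Moxd1 counted, as a description, leaving out 1 library gave 2 to 3 members for age under the control plasmid and 3 to 7 under the MANF plasmid. The count of 3 came without young MANF replicate 3, old MANF replicate 2 or old MANF replicate 4. Counts were 0 to 1 for MANF in old livers, and 0 for MANF in young livers and for the interaction.

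Scaling to a common median moved the median of all genes from 0.11 to -0.04 for age over both plasmids. The median of all 9 members, Moxd1 included, moved from -0.85 to -1.01. Counts over all genes for age under the MANF plasmid (702) were 310 with median scaling, 247 with quantile normalisation, 1072 with only the 2 groups compared, 1406 with both far libraries out, and 216 to 1125 without 1 library (1125 without young MANF replicate 4, and below 702 without any other). For age under the control plasmid (133) they were 229 with both far libraries out and 37 to 132 without 1 library (37 without young control replicate 4), and over both plasmids (1664) 967 to 1861, 967 being without the same library. For MANF in old livers (11) they were 3 with a pseudocount of 0.1, 3 with no filter, 17 with quantile normalisation, 6 with only the 2 groups, 362 with both far libraries out and 2 to 146 without 1 library, 146 being without old control replicate 4. For MANF in young livers (2) they were 1 with a filter of 1 RPKM, 5 with only the 2 groups and 2 to 3 without 1 library. For the interaction (0, with 894 genes at an unadjusted p below 0.05) they were 1 with both far libraries out and 0 to 2 without 1 library. The causes were not tested.

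Replicate numbers did not pair the libraries: of 24 same-numbered pairs 5 had a correlation of deviations over 0.1 (range -0.32 to 0.21), and 3 pairs had their own number as the best. With a replicate block, 85 genes were called for age under the control plasmid, 459 under the MANF plasmid and 6 for MANF in old livers, and Cyp2u1 under the MANF plasmid missed the threshold (adjusted p = 0.0514).

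Sign changes were of values that had not passed. With both far libraries out, log2 differences were 0.30 for Elovl3 and 0.056 for Slco1a1 (age, control plasmid), -0.08 for Cyp2d9 (MANF, young), and -0.10 for Cyp4a12a and -0.18 for Elovl3 (MANF, old). Quantile normalisation gave -0.051 for Cyp2d9 (MANF, young), 0.027 for Moxd1 (MANF, old) and -0.068 for Stat5a (age), which was -0.019 under median scaling. Without 1 library the ranges were -0.36 to 0.30 for Elovl3 and -0.41 to 0.056 for Slco1a1 (age, control plasmid), -0.08 to 0.18 for Cyp2d9 and -0.025 to 0.31 for Slco1a1 (MANF, young), and -0.54 to 0.14 for Cyp4a12a (interaction). For MANF in old livers they were -0.27 to 0.41 for Cyp4a12a, -1.03 to 0.28 for Hsd3b5, -0.18 to 0.48 for Elovl3, -0.025 to 0.036 for Moxd1 and -0.15 to 0.049 for Nudt7. Moxd1 in old livers rests on 0 to 5 reads a library, so that differences between old groups were not detectable at this depth.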
